A study of Mus musculus with 36 samples.

Results

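Solute carriers were followed in mouse diaphragm, the main breathing muscle, through every probe set whose single annotated gene symbol starts with Slc and a digit, with Slc2a4 and Slc25a20 left out. The rule found 182 of the 12488 probe sets of the array, which read 149 of its 8252 genes with a single symbol. Of these, 133 probe sets of 116 genes passed the filter on low signal and were tested, and 49 did not pass. No tested member passed through arrays of 1 group only, and 2 passed through arrays of 1 genotype only. Slc9a3r1, Slc9a3r2 and Slc4a1ap were members by their symbols, although their products are scaffolds or neighbours and carry nothing across a membrane.

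Total diaphragm RNA was hybridised to 1-colour Affymetrix arrays. Control mice were compared with mdx mice, whose dystrophin gene Dmd carries an inherited point mutation in every cell, at 7, 14, 23, 28, 56 and 112 days of age. Each of the 12 groups had 3 arrays, 36 in all. The labels gave no strain, sex or pooling, and did not say that the 3 arrays of a group came from separate animals, so that p-values reflect the array-to-array spread alone, part of which may be technical.

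Deposited signals had been brought to a common level, with trimmed means of 1499.2 to 1499.7 and medians of 450.6 to 723.4. The Dmd probe set read 330 to 1026 over control arrays and 138.9 to 712.3 over mdx arrays, and the groups did not overlap at 14, 23, 28 and 56 days. Arrays differed in the ratio of the Gapdh control probe set named 3′ to the one named 5′, which is used as a measure of RNA integrity. It ran from 0.0357 to 0.971, and whether it tracks RNA integrity on these arrays was not tested. Albumin, a liver transcript, exceeded a signal of 10000 on 9 arrays spread over 7 of the 12 groups. Differences are given on the log2(signal + 32) scale with their standard error (SE) and, unless stated otherwise, adjusted p is the two-sided limma p after Benjamini-Hochberg adjustment over the 9291 probe sets tested. A member with an adjusted p under 0.05 is said to have risen or fallen. Fewer cells of a type and less RNA per cell cannot be told apart in whole muscle.

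Solute carriers are membrane proteins that move amino acids, sugars, organic acids, metals, ions, nucleotides and vitamins across the cell surface and across the membranes of mitochondria, lysosomes, endoplasmic reticulum and Golgi. Many couple transport to a sodium or proton gradient, and others exchange one substrate for another. Skeletal muscle relies on them for glucose, lactate, fatty acid and creatine traffic and for the exchange of metabolites between cytosol and mitochondria. Immune cells that enter damaged muscle carry a partly different set.

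No carrier passed the test at 7 or 14 days, and calls were most numerous at 56 days. At 7 days 0 members rose and 0 fell by limma, against 0.0538% and 0.409% of all probe sets tested, and 10 members had an unadjusted p under 0.05. At 14 days 0 rose and 0 fell by limma, against 0.161% and 0.0323% of all tested, with 8 members under an unadjusted 0.05. At 23 days 2 members rose (1.5% of 133, against 2.68% of all tested) and 0 fell (against 0.807%). At 28 days 2 members rose (1.5%, against 2.42%) and 1 fell (0.752%, against 0.538%). At 56 days 10 members rose (7.52%, against 9.27%) and 8 fell (6.02%, against 7.38%). At 112 days 5 rose (3.76%, against 7.65%) and 5 fell (3.76%, against 4.52%). None of these 112-day calls was kept in a fit of the arrays of that age alone. In the mean of the 6 ages 9 members rose (6.77%, against 10.4%) and 6 fell (4.51%, against 7.41%). Shares among the carriers thus lay near or under those of the whole array. The median log2 difference over tested members was 0.17 at 56 days, beside 0.15 over all probe sets tested, and -0.16 at 112 days, beside 0.02.

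In all, 25 members were called at 1 or more ages and 106 of the 133 in no genotype comparison. A group of 8 members, written here with their direction in mdx muscle, was called at 2 ages or more: Slc7a5, Slc4a3, Slc11a1 and Slc39a7 were higher, and Slc16a1, Slc25a11, Slc25a39 and Slc37a4 were lower. No member was called in opposite directions at different ages. These counts over several ages were not made for all probe sets tested, so they cannot be read as particular to the carriers. The SE of a difference at 1 age ran from 0.111 to 0.969 over members, with a median of 0.286, and small differences could not be resolved at 1 age.

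**Figure D1:**
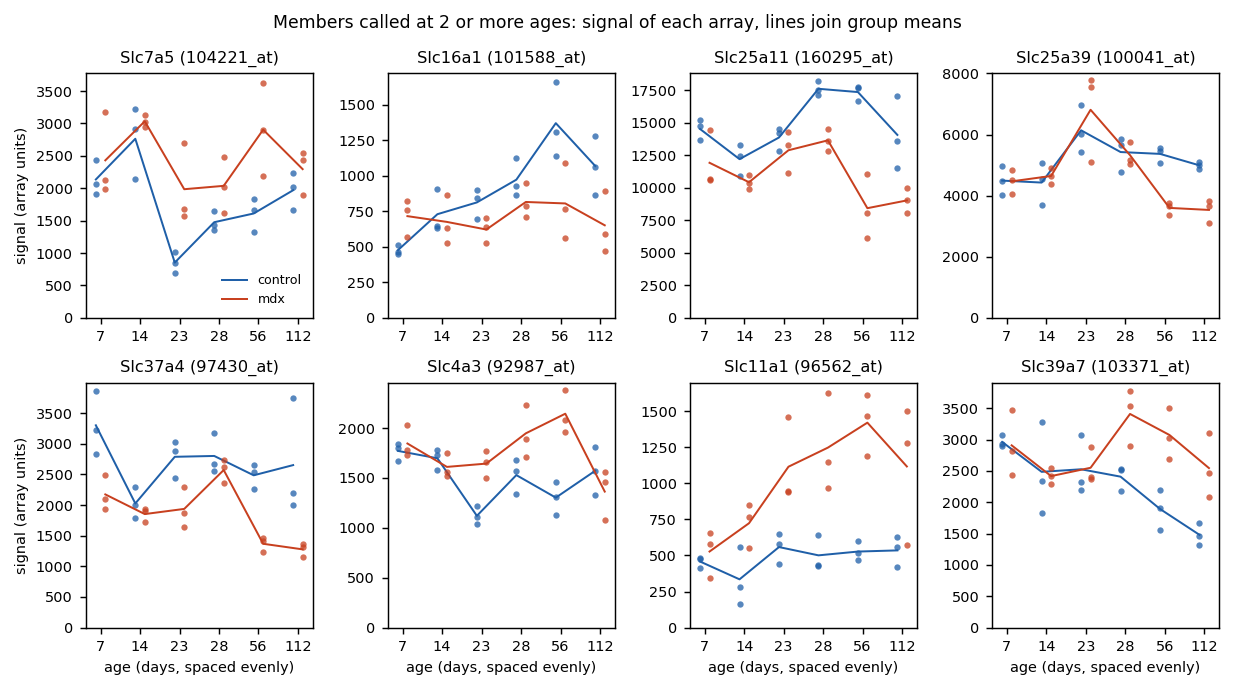
Signal of each array in array units against age, for the 8 members with an adjusted p under 0.05 at 2 or more ages, with lines joining the means of the 3 arrays of each group. Slc25a39 arrays of mdx mice lie at 3114 to 3831 at 56 and 112 days, under all control arrays of those ages, while Slc11a1 arrays of mdx mice lie at 1188 to 1612 at 56 days, above all control arrays.

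**Figure D2:**
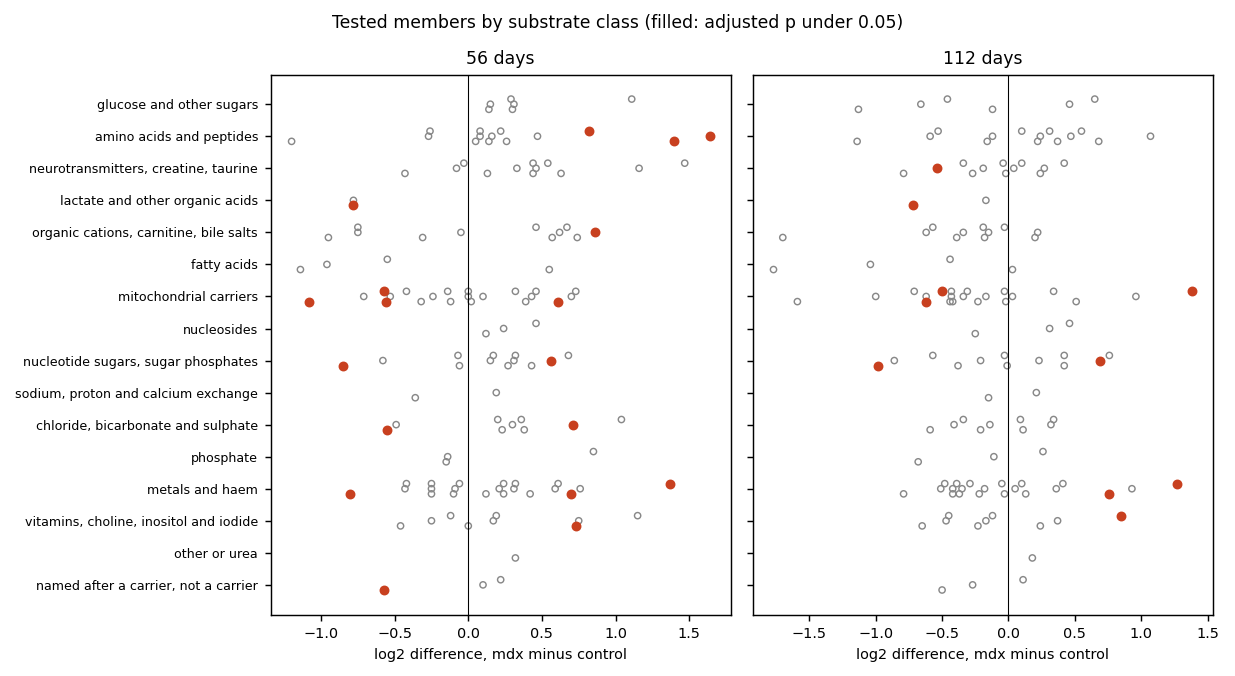
Log2 difference, mdx minus control, of each tested member at 56 days and at 112 days, by substrate class; filled points have an adjusted p under 0.05. The 18 filled points at 56 days and the 10 at 112 days are spread over many classes, and lie on both sides of 0.

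Upstream sequences are shown for the 4 members that fell at both 56 and 112 days and for Slc11a1, the member with the lowest adjusted p among those that rose in the mean of the ages, so that their start regions can be read beside the values. Each is the 250 bases before a RefSeq start on GRCm38.p6, and 123 of the member genes had such an entry. Slc16a1 lies at chr3:104638414-104638663 on the plus strand, Slc25a11 at chr11:70647040-70647289 on the minus strand, Slc25a39 at chr11:102407518-102407767 on the minus strand, Slc37a4 at chr9:44396696-44396945 on the plus strand (1 of 3 starts listed) and Slc11a1 at chr1:74374953-74375202 on the plus strand. Capitals mark GGGCGG, the GC box letters, on either strand in the first 4, and GAGGAA, the core letters of PU.1 sites, on either strand in Slc11a1.
Slc16a1: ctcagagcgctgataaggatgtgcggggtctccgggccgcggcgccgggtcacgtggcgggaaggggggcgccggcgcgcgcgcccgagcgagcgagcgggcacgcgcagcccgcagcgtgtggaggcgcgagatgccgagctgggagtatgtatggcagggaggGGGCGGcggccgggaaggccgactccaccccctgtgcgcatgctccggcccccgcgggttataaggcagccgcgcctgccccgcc
Slc25a11: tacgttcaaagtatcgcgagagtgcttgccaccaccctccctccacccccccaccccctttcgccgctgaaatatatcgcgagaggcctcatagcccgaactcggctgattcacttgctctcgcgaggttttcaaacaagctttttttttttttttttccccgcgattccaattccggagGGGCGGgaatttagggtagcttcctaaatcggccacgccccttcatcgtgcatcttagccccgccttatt
Slc25a39: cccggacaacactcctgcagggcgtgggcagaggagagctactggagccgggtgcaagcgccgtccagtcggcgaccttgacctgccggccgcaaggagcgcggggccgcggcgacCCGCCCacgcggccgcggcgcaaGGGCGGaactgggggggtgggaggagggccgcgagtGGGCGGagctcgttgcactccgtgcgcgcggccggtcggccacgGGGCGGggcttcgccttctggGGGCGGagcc
Slc37a4: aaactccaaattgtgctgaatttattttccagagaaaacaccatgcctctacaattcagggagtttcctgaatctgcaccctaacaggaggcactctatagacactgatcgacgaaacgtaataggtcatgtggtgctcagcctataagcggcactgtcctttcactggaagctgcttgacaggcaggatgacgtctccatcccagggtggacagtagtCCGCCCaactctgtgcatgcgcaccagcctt
Slc11a1: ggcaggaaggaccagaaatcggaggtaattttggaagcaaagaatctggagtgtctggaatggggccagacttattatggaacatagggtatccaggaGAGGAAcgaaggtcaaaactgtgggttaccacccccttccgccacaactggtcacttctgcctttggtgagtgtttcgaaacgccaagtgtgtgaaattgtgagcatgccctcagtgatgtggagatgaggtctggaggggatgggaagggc
GGGCGG was present 5 times in the Slc25a39 window and 1 time in each of the other 3. GAGGAA was present 1 time in the Slc11a1 window. Of all 32851 windows of this length in the table, 32.7% held GGGCGG and 23.3% held GAGGAA. Among the 123 member genes with an entry, 70 held GGGCGG and 24 held GAGGAA at their first listed start. The shares over all windows count every listed start of every gene, so these counts are not like for like. A match of letters is a description of the sequence only.

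Among amino acid and peptide carriers, 3 of 14 tested members rose at 56 days and 0 fell by limma, beside 9.27% and 7.38% of all tested. Slc7a5, the light chain of the heterodimeric exchanger that brings in leucine and other large neutral amino acids, rose at 23 and at 56 days. At 23 days its signal was 1012, 696 and 849.9 on control arrays and 2703, 1685 and 1567 on mdx arrays, without overlap. That difference was 1.16 ± 0.215 (SE, adjusted p = 0.000967), a ratio of mean signals of 2.33. At 56 days control arrays read 1332, 1841 and 1658 and mdx arrays 3628, 2892 and 2190, again without overlap, with a difference of 0.82 ± 0.215 (SE, adjusted p = 0.00787). Its mean over the ages was 0.49 (adjusted p = 0.000106), and at 28 and 112 days the differences were 0.44 and 0.22. The 56-day call failed without control replicate 1 (difference 0.69, adjusted p = 0.0589) and without mdx replicate 1 (difference 0.65, adjusted p = 0.0738).

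Slc3a2, the heavy chain that carries Slc7a5 to the cell surface, had its highest signals of the series on 2 mdx arrays at 23 days. Its arrays read 2325, 2877 and 2655 in control and 5382, 4659 and 2615 in mdx muscle at that age, and overlapped. The difference was 0.62 (adjusted p = 0.0953), and -0.26 at 56 days. Slc1a5, the glutamine carrier, did not pass at any single age, and its difference ran from -0.81 at 7 days to 0.70 at 14 days, with non-overlapping arrays at both ages. Slc38a2, a sodium-coupled neutral amino acid carrier, had a mean difference of 0.09 (adjusted p = 0.551) in the 1 of its 4 probe sets that was tested. Of the other 3, an _r_at probe set was higher by 0.69 in the mean of a fit with no filter (adjusted p = 0.036). In that fit the untested probe set of Slc6a4 was lower by -0.67 (adjusted p = 0.0246).

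Slc7a7, the light chain of the cationic and neutral amino acid exchanger that is also made by macrophages, rose at 56 days. Control arrays read 120.3, 112 and 286 and mdx arrays 728.9, 496.3 and 497.3, without overlap, and the difference was 1.64 ± 0.395 (SE, adjusted p = 0.00412), a ratio of means of 3.32. It was also higher in the mean of the ages, by 0.65 (adjusted p = 0.00382), and kept both calls in every fit without 1 array. Slc7a9, the light chain of the cystine exchanger, rose at 56 days, by 1.40 ± 0.378 (SE, adjusted p = 0.01). Its control arrays read 235.5, 265.2 and 531 and its mdx arrays 673.2, 1041 and 1051, and the call failed without control replicate 1 (difference 1.19, adjusted p = 0.0654) or control replicate 2 (difference 1.27, adjusted p = 0.0524).

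Macrophage transcripts were also higher in mdx muscle. Slc7a5 was called at 23 and 56 days, and Slc7a7 and Slc7a9 at 56 days alone. At 23, 28 and 112 days, without a call, the ratio of mean signals, mdx over control, was 1.84, 1.98 and 2.37 for Slc7a7. For Slc7a9 it was 0.981, 0.821 and 1.42. Of 13 tested macrophage markers of a list of 15, 12 were higher in mdx muscle at 23 days, 9 at 28 days, 11 at 56 days and 10 at 112 days. Their summed signal was 22958 to 27443 on control arrays and 64895 to 78702 on mdx arrays at 56 days. The part of macrophage RNA in the rises of Slc7a5, Slc7a7, Slc7a9 and Slc11a1 was not tested.

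Among carriers of metals, Slc11a1 and the zinc carriers Slc39a7 and Slc39a6 rose. The other 7 of 9 tested probe sets of family 39 were called in no genotype comparison. Over all tested, 10.4% were higher and 7.41% lower in the mean of the ages. Slc11a1, the divalent metal pump of macrophage phagosomes, was higher in the mean of the ages by 0.97 ± 0.134 (SE, adjusted p = 2.33e-06). At 56 days its signal was 600.5, 466.4 and 514.5 in control and 1612, 1465 and 1188 in mdx muscle, without overlap, a difference of 1.37 ± 0.329 (SE, adjusted p = 0.00398). At 28 days it was 642.5, 434.7 and 425.4 against 971.1, 1150 and 1624, a difference of 1.26 (adjusted p = 0.0261). Arrays also did not overlap at 23 days (0.95, adjusted p = 0.128), but did at 7 days (0.15), at 14 days (1.17) and at 112 days, when 1 mdx array read 575.1 and the difference was 0.93 (adjusted p = 0.0603). The 28-day call failed without control replicate 2 (difference 1.17, adjusted p = 0.11), control replicate 3 (difference 1.16, adjusted p = 0.122), mdx replicate 2 (difference 1.30, adjusted p = 0.0597) or mdx replicate 3 (difference 1.05, adjusted p = 0.218).

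Slc39a7, the carrier that releases zinc from the endoplasmic reticulum and Golgi, rose at both later ages. Control arrays read 1914, 2201 and 1561 and mdx arrays 3502, 3030 and 2686 at 56 days, a difference of 0.70 ± 0.18 (SE, adjusted p = 0.00724). At 112 days the values were 1314, 1666 and 1459 against 2461, 3097 and 2076, a difference of 0.76 ± 0.18 (SE, adjusted p = 0.00394). Neither age overlapped. Control signal was 2892 to 3065 at 7 days, and its difference from 7 to 112 days was -0.99 (adjusted p = 6.45e-05), while the mdx difference over the same span was -0.19 (adjusted p = 0.514). The 56-day call failed without mdx replicate 1 (difference 0.60, adjusted p = 0.0526). The 112-day call failed with an almost unmoved difference without the arrays of high albumin (0.77, adjusted p = 0.0546) and in a fit of the arrays of that age alone (0.76, adjusted p = 0.0803).

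Slc39a6, a zinc carrier of the plasma membrane, rose at 112 days by 1.27 (adjusted p = 0.0162) and in the mean of the ages by 0.51 (adjusted p = 0.0126). Its control arrays at 112 days read 529.3, 68.4 and 262 and its mdx arrays 504.6, 558.9 and 701.6, and overlapped. Without control replicate 2 the 112-day difference was 0.60 (adjusted p = 0.233), and without mdx replicate 3 it was 1.14 (adjusted p = 0.0718). Slc30a9, of the family that moves zinc out of the cytosol, fell at 56 days. Its signals were 1666, 1588 and 1660 in control and 865.9, 778.3 and 1184 in mdx muscle, a difference of -0.80 ± 0.211 (SE, adjusted p = 0.00831), lost without mdx replicate 2 (difference -0.68, adjusted p = 0.0509). Slc41a1, a magnesium carrier, was lower in the mean of the ages by -0.23 (adjusted p = 0.00801). Of 21 tested members for metals and haem, 3 rose and 2 fell in that mean, near the 10.4% and 7.41% of all tested.

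Carriers of fuel molecules moved in few places. Slc16a1, the monocarboxylate carrier for lactate and ketone bodies, fell at 56 and 112 days. At 56 days its signal was 1663, 1140 and 1312 in control and 768.2, 560.8 and 1090 in mdx muscle, without overlap, a difference of -0.78 ± 0.241 (SE, adjusted p = 0.0248). At 112 days the values were 1066, 864.1 and 1280 against 894.2, 594.2 and 467.9 and overlapped, with a difference of -0.72 (adjusted p = 0.0478). At 7 days the direction was the opposite, 0.54, with mdx arrays above all control arrays. The 56-day call failed without control replicate 1 (difference -0.63, adjusted p = 0.134), mdx replicate 1 (difference -0.77, adjusted p = 0.0701) or mdx replicate 2 (difference -0.55, adjusted p = 0.157). At 112 days it failed without control replicate 1 (difference -0.71, adjusted p = 0.0989), control replicate 3 (difference -0.58, adjusted p = 0.162), mdx replicate 2 (difference -0.68, adjusted p = 0.125) or mdx replicate 3 (difference -0.52, adjusted p = 0.243). Both calls were also lost with array weights and in fits of the arrays of each age alone. The 56-day call was lost without the arrays of high albumin as well. At 112 days that setting left 1 control array, and the call was not kept there either. The 112-day call was also lost with no filter and with the replicate block.

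Slc16a7, another monocarboxylate carrier, did not pass the filter. At 56 days it read 264.6, 499.4 and 342.3 in control and 55.7, 37.7 and 43.3 in mdx muscle, without overlap. In a fit with no filter that difference was -2.33 (adjusted p = 0.00171) and -1.91 at 112 days (adjusted p = 0.0104). Its 112-day arrays read 66.8, 331.2 and 373.9 against 15.7, 18.8 and 81.6, and overlapped.

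Glucose carriers gave 0 calls in any genotype comparison over 6 tested probe sets, beside 9.27% higher and 7.38% lower among all tested at 56 days. Slc2a1, the basal glucose carrier, had a mean difference of -0.02 (adjusted p = 0.954). Slc2a3, the high-affinity glucose carrier, was read by 2 tested probe sets with mean differences of -0.12 and 0.04, and the former had a 112-day difference of -1.13 (adjusted p = 0.0543).

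Slc37a4, which brings glucose 6-phosphate into the endoplasmic reticulum, had the lowest adjusted p among the members in the mean of the ages, -0.53 ± 0.0701 (SE, adjusted p = 1.05e-06). At 56 days its signal was 2650, 2543 and 2265 in control and 1407, 1228 and 1468 in mdx muscle, a difference of -0.85 ± 0.172 (SE, adjusted p = 0.000856). At 112 days the values were 3754, 2009 and 2195 against 1367, 1154 and 1308, a difference of -0.98 ± 0.172 (SE, adjusted p = 0.000151). The arrays did not overlap at either age, nor at 7 days (-0.59, adjusted p = 0.148) or 23 days (-0.53, adjusted p = 0.0941), and the difference was -0.12 at both 14 and 28 days. Leaving out any 1 array kept the calls at 56 and 112 days. The 112-day call was lost in a fit of the arrays of that age alone.

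Of 12 tested members for nucleotide sugars and sugar phosphates, a class that includes Slc37a4, 1 rose and 1 fell at 56 days and again at 112 days, beside 9.27% and 7.38% of all tested at 56 days and 7.65% and 4.52% at 112 days. Slc35c2, linked to fucosylation in the Golgi, rose at 56 days by 0.56 (adjusted p = 0.0351) and in the mean of the ages by 0.28 (adjusted p = 0.00871). Its 56-day signals were 855.9, 825 and 812.4 in control and 1373, 1382 and 1005 in mdx muscle. The call at 56 days failed without any 1 of the 3 control arrays or of mdx replicates 1 and 2, with values from 0.48 to 0.58. Slc35e4 rose at 112 days by 0.69 (adjusted p = 0.0174), and did not without control replicate 2 (difference 0.67, adjusted p = 0.0574), mdx replicate 2 (difference 0.69, adjusted p = 0.0511) or mdx replicate 3 (difference 0.42, adjusted p = 0.196).

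Mitochondrial carriers of family 25 included 3 of 21 tested probe sets lower and 1 higher at 56 days, beside 7.38% and 9.27% of all tested, and 2 lower and 1 higher at 112 days, beside 4.52% and 7.65%. Slc25a11, the exchanger of oxoglutarate and malate that serves the malate-aspartate shuttle, read 17769, 17659 and 16670 in control and 6115, 8099 and 11090 in mdx muscle at 56 days. The arrays did not overlap, and the difference was -1.08 ± 0.159 (SE, adjusted p = 1.63e-05), a ratio of means of 0.486. At 112 days the values were 11510, 13603 and 17099 against 10020, 8031 and 9042, a difference of -0.62 (adjusted p = 0.00721), and its mean over the ages was -0.45 (adjusted p = 4.88e-06). At 112 days the call failed without control replicate 3 (difference -0.47, adjusted p = 0.0636) or mdx replicate 2 (difference -0.54, adjusted p = 0.0507).

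Slc25a39, which brings glutathione into mitochondria, read 5562, 5465 and 5077 in control and 3757, 3676 and 3365 in mdx muscle at 56 days. The difference was -0.57 ± 0.138 (SE, adjusted p = 0.00417). At 112 days it was -0.50 (adjusted p = 0.0132), with control arrays at 4868 to 5115 and mdx arrays at 3114 to 3831. Neither age overlapped, and the differences from 7 to 28 days lay between -0.02 and 0.13. Without mdx replicate 1 the 112-day difference was -0.41 (adjusted p = 0.0724). Slc25a36, a pyrimidine nucleotide carrier, fell at 56 days by -0.56 (adjusted p = 0.0162), a call that failed without control replicate 1 (difference -0.51, adjusted p = 0.0693), control replicate 3 (difference -0.48, adjusted p = 0.0657) or mdx replicate 1 (difference -0.42, adjusted p = 0.124). Slc25a28, a mitoferrin that carries iron, fell at 28 days by -0.54 (adjusted p = 0.0261), with control arrays at 2258 to 2585 and mdx arrays at 1497 to 1784. That call was lost in 5 of 6 fits without 1 array, with differences from -0.59 to -0.46.

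The adenine nucleotide translocases, which exchange ADP for ATP, gave mixed readings. Slc25a4, the muscle form, had a mean difference of -0.12 (adjusted p = 0.69) and its 56-day mdx arrays ran from 9178 to 48171. Slc25a5, the form of growing cells, was read by 3 tested probe sets that differed in their calls. The one ending in _f_at rose at 56 days by 0.61 (adjusted p = 0.0209), from 3355, 3260 and 4443 to 4815, 5777 and 6308, and was higher in the mean by 0.22 (adjusted p = 0.044). The one ending in _r_at rose at 112 days by 1.38 (adjusted p = 0.0107), from 353.7, 121.2 and 530.5 to 458.2, 899.9 and 1253, with overlap. The remaining one, ending in _at alone, had 0.32 and -0.42 at these ages. The call of the _r_at probe set failed without control replicate 2 (difference 0.85, adjusted p = 0.145) or mdx replicate 3 (difference 1.07, adjusted p = 0.0912). The 56-day call of the _f_at probe set failed without control replicate 1 (difference 0.55, adjusted p = 0.0884), control replicate 2 (difference 0.53, adjusted p = 0.0996), mdx replicate 2 (difference 0.59, adjusted p = 0.0579) or mdx replicate 3 (difference 0.53, adjusted p = 0.0831).

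Transcripts of oxidative phosphorylation moved at the same ages, with 18 of 45 tested lower and 1 higher at 56 days and 5 lower at 112 days. Adipocyte markers were also lower, with 4 of 7 tested lower at 56 days and 3 at 112 days, and summed signals of 46416 to 52060 on control and 21930 to 27048 on mdx arrays at 56 days. Of 12 skeletal muscle markers, 3 were lower at 56 days and 0 at 112 days. Endothelial markers were lower in 2 of 10 at 56 days and in 4 of 10 at 112 days, with 1 higher at 112 days. Fibroblast markers were higher in 4 of 9 at 56 days and in 5 of 9 at 112 days, with summed signals of 95591 to 101654 on control and 116157 to 171592 on mdx arrays at 56 days. The part of these shifts in the rises and falls of the carriers at these ages was not tested.

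Among carriers of chloride, bicarbonate and sulphate, Slc4a3, the anion exchanger of heart, brain and muscle, rose at 23 and at 56 days. At 56 days control arrays read 1132, 1313 and 1462 and mdx arrays 2082, 2385 and 1964, without overlap, a difference of 0.71 ± 0.145 (SE, adjusted p = 0.000972). At 23 days the values were 1034, 1219 and 1106 against 1664, 1770 and 1496, a difference of 0.54 (adjusted p = 0.0298). At 112 days the difference was -0.21, with overlap. The 23-day call failed without control replicate 1 (difference 0.49, adjusted p = 0.15), control replicate 3 (difference 0.53, adjusted p = 0.0938), mdx replicate 1 (difference 0.53, adjusted p = 0.132) or mdx replicate 2 (difference 0.49, adjusted p = 0.133).

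Slc12a2, the sodium, potassium and chloride cotransporter that loads chloride into cells, fell at 56 days. Its signals were 6801, 5976 and 6354 in control and 4324, 4023 and 4716 in mdx muscle, a difference of -0.55 (adjusted p = 0.0405). The arrays did not overlap, and yet the call failed without any 1 of the 3 control arrays or of mdx replicates 1 and 2, with differences from -0.59 to -0.49. Slc12a7, which couples potassium and chloride efflux, was higher in the mean of the ages by 0.25 (adjusted p = 0.0101). Slc8a1, the sodium and calcium exchanger, had a mean difference of -0.01 (adjusted p = 0.973), and its other 2 probe sets did not pass the filter. Slc20a1, a phosphate carrier, had a mean difference of -0.07 (adjusted p = 0.747).

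Slc6a8, which brings creatine into muscle, fell at 112 days. Control arrays read 6652, 6369 and 6730 and mdx arrays 5509, 4005 and 4166, without overlap, a difference of -0.54 ± 0.139 (SE, adjusted p = 0.00771). It was the only call at a single age among 12 tested members for neurotransmitters, creatine and taurine. It failed without mdx replicate 2 (difference -0.46, adjusted p = 0.0592). The other probe set of Slc6a8 did not pass the filter, with signals up to 228.3. Its ratio of mean signals, mdx over control, was 1.65 at 112 days. Slc6a6, the taurine carrier, had 0.48 at 23 days (adjusted p = 0.0526), against -0.38 at 28 days (adjusted p = 0.171), and 0.11 in the mean.

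Fatty acid and carnitine carriers gave 1 call. Slc27a4, a fatty acid transport protein, rose at 28 days by 1.33 (adjusted p = 0.0389), from 283.3, 248.8 and 88.3 to 414.4, 442.6 and 762.7. The call failed without control replicate 3 (difference 0.89, adjusted p = 0.347), mdx replicate 2 (difference 1.44, adjusted p = 0.0597) or mdx replicate 3 (difference 1.06, adjusted p = 0.284). Slc27a1, the fatty acid transport protein of muscle and fat, did not pass in any genotype comparison, with -0.68 at 28 days (adjusted p = 0.066) and -0.23 in the mean of the ages (adjusted p = 0.0522). Its arrays did not overlap at 28 days, with control at 3102 to 3624 and mdx at 1692 to 2362. Slc22a5, the carnitine carrier, had a mean difference of -0.41 (adjusted p = 0.18).

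Among other members, Slc22a17, a receptor for lipocalin 2, rose at 56 days. Control arrays read 1045, 926.9 and 777.1 and mdx arrays 1698, 1762 and 1578, without overlap, a difference of 0.86 ± 0.195 (SE, adjusted p = 0.00257). Slc44a4, of the choline transporter-like family, rose at 56 days by 0.73 (adjusted p = 0.0317), a call that failed without control replicate 1 (difference 0.72, adjusted p = 0.0869), control replicate 2 (difference 0.63, adjusted p = 0.132), mdx replicate 1 (difference 0.66, adjusted p = 0.117) or mdx replicate 2 (difference 0.75, adjusted p = 0.0618). Slc44a1, a choline carrier, rose at 112 days by 0.85 (adjusted p = 0.0493), with overlapping arrays, and without control replicate 2 the difference was 0.45 (adjusted p = 0.369). It also failed without control replicate 3 (difference 0.92, adjusted p = 0.0574), mdx replicate 2 (difference 0.79, adjusted p = 0.136) or mdx replicate 3 (difference 0.79, adjusted p = 0.131). Slc9a3r2, a scaffold that ties sodium and proton exchangers to the cytoskeleton, was lower in the mean of the ages by -0.32 (adjusted p = 0.00424). It also fell at 56 days by -0.57 (adjusted p = 0.0405), with overlap, and lost that call without control replicate 2 (difference -0.40, adjusted p = 0.232), mdx replicate 1 (difference -0.37, adjusted p = 0.259) or mdx replicate 3 (difference -0.51, adjusted p = 0.111).

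From 7 to 112 days, carriers of control diaphragm were called in larger numbers than those of mdx diaphragm. In control muscle 30 members rose (22.6%, against 21.4% of all tested) and 16 fell (12%, against 20.3%). In mdx muscle 6 rose (4.51%, against 8.18%) and 10 fell (7.52%, against 9.18%). A set of 7 members was called in both genotypes, all in the same direction, while 39 passed in control but not in mdx muscle and 9 in mdx but not in control muscle. These were 5.26%, 29.3% and 6.77% of the tested members, beside 11.6%, 30.1% and 5.76% of all probe sets tested. The 7 made up 15.2% of the members called in control and 43.8% of those called in mdx muscle, beside 27.8% and 66.8% over all tested. Whether the ageing differences themselves differed between the genotypes was not tested.

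Slc6a8 rose in both, by 1.42 ± 0.139 (SE, adjusted p = 2.59e-09) in control and by 0.76 ± 0.139 (SE, adjusted p = 0.000177) in mdx muscle. Control arrays went from 2556, 2228 and 2541 at 7 days to 6369 to 6730 at 112 days. Slc38a4, a neutral amino acid carrier that is imprinted, fell in both, by -1.24 (adjusted p = 3.3e-07) and -1.15 (3.02e-06), from 4508 to 4716 in control muscle at 7 days to 1449 to 2271 at 112 days. Slc10a6, which carries steroid sulphates, rose by 1.53 and 1.07, and Slc23a2, a vitamin C carrier, by 0.58 and 0.53. Slc38a10 fell by -1.02 and -0.64, Slc25a36 by -0.52 and -0.69 and the _at probe set of Slc29a1, the equilibrative nucleoside carrier, by -1.16 and -0.63. An _r_at probe set of Slc38a10 that did not pass the filter went the other way. Its ratios of mean signals, 112 over 7 days, were 6.58 in control and 4.9 in mdx muscle.

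In control muscle the largest other rises were Slc6a20b (1.78), Slc38a5 (1.59), Slc34a2 (1.58), Slc25a3 (1.51), the _r_at probe set of Slc29a1 (1.40) and Slc25a1 (_i_at, 1.30). The 2 probe sets of Slc29a1 thus went opposite ways. Slc25a3 is the mitochondrial phosphate carrier and Slc25a1 the citrate carrier. Its largest other falls were Slc1a4 (-1.99), which moves alanine, serine and cysteine, Slc7a7 (-1.56), Slc25a5 (_r_at, -1.53), Slc25a10 (-1.32) and Slc39a6 (-1.28). In mdx muscle the other rises were Slc11a1 (0.98), Slc1a5 (0.81) and Slc35e1 (0.66), and the largest other falls were Slc27a1 (-0.91), Slc25a25 (-0.83), Slc37a4 (-0.75) and Slc41a1 (-0.58). Slc25a25 carries ATP and magnesium into mitochondria.

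Several ageing calls passed the threshold by a small margin and were lost in fits without 1 array. In control muscle, Slc39a6 moved from -1.28 to -0.60 (adjusted p = 0.115) without control replicate 2 at 112 days. Slc25a3 ran from 1.03 to 1.42, Slc34a2 from 1.24 to 1.28, Slc25a10 from -1.34 to -1.05 and the _r_at probe set of Slc29a1 from 1.22 to 1.35 in fits without 1 of 3 or 4 of the 6 arrays, in which the call was lost (adjusted p from 0.0503 to 0.175). In mdx muscle, Slc41a1 was -0.49 (adjusted p = 0.0549) without mdx replicate 3 at 112 days. Slc10a6, Slc11a1, Slc1a5, Slc23a2, Slc25a25, Slc35e1, Slc38a10 and the _at probe set of Slc29a1 also failed without some single arrays of mdx muscle, with adjusted p up to 0.379. The left-out values included 0.52 for Slc1a5, 0.33 for Slc23a2 and -0.44 for Slc25a25, the last without mdx replicate 3 at 112 days.

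The Gapdh ratio moved with the control span, at 0.0357 to 0.147 at 7 days and 0.518 to 0.93 at 112 days. In mdx muscle it was 0.32 to 0.83 and 0.532 to 0.665 at these ages. With that ratio as a covariate, 18 members rose and 10 fell in control muscle. Of these, 15 rises and 10 falls were calls of the main fit, which had 30 and 16. Albumin also exceeded 10000 on 1 of 3 control arrays at 7 days and on 2 of 3 at 112 days, and without all such arrays, which left 2 control arrays at 7 days and 1 at 112 days, 14 rose and 7 fell.

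**Figure D3:**
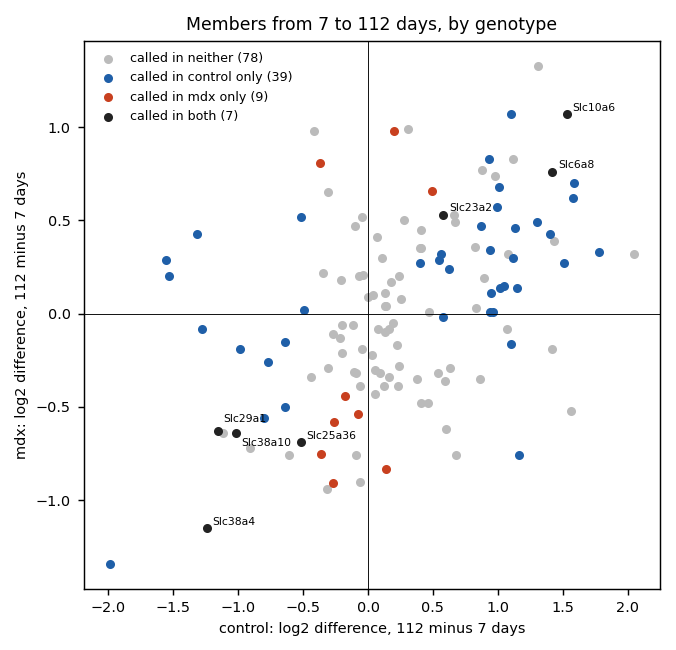
Log2 difference from 7 to 112 days in mdx muscle against that in control muscle, 1 point per tested member, coloured by the genotype in which the adjusted p was under 0.05. The 7 members called in both genotypes are named and lie in the lower left and upper right quadrants, and the 39 called in control alone spread along the horizontal axis.

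Genotype differences depended on age for 8 tested members (6.02%, against 8.93% of all tested) by the F test of the 6 differences. They were Slc4a3, Slc25a28, Slc25a39, Slc25a11, Slc6a4 (_f_at), Slc37a4, Slc7a7 and Slc1a5, with adjusted p from 0.0112 to 0.0492. Slc4a3 rose at 23 and 56 days and read -0.21 at 112 days, and Slc25a39 was called at 56 and 112 days and at no earlier age. Slc6a4, the serotonin carrier, ran from 0.83 at 7 days to -0.74 at 23 days and passed at no single age. When 1 array was left out, 2 to 13 members depended on age. Slc4a3 kept its call in each of the 36 such fits. The call was lost in 29 of these 36 fits for Slc7a7, 27 for Slc1a5, 22 for Slc37a4 and 18 for Slc6a4. It was lost in 6 for Slc25a11, 4 for Slc25a39 and 1 for Slc25a28, and adjusted p over all these losses ran up to 0.131. Without the arrays of high albumin, Slc4a3, Slc25a28, Slc25a39, Slc25a11 and Slc1a5 lost their calls. That setting left 1 control array at both 14 and 112 days. With the Gapdh ratio as a covariate, 2 of the 8 calls were kept, and those of Slc25a39, Slc25a11 and Slc1a5 were lost.

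Related transport genes without an Slc symbol were counted beside the members. Of 11 tested carriers of these families under other symbols, 3 were lower and 0 higher at 56 days and 3 lower at 112 days. In the mean of the ages 4 were lower and 1 higher. Over all tested, 7.38% were lower and 9.27% higher at 56 days, and 4.52% lower at 112 days. The shares in the mean were 7.41% lower and 10.4% higher. Ank, which exports pyrophosphate and ATP, was lower by -0.85 at 56 days (adjusted p = 1.11e-05), and by -0.60 at 112 days (adjusted p = 0.000796). Ucp3, the uncoupling protein of muscle mitochondria, was lower by -0.92 at 23 days (adjusted p = 0.00031), -0.59 at 56 days and -0.63 at 112 days. Slco3a1 was lower by -1.07 at 112 days (adjusted p = 0.00176). Of 6 tested genes of the sodium pump and its FXYD regulators, 2 were higher and 1 lower in the mean, with Fxyd5 higher by 0.74 (adjusted p = 1.73e-05) and Fxyd1, or phospholemman, lower by -0.24 (adjusted p = 0.0207).

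Carriers known from liver had high signals on some arrays with high albumin and not on others. Slc27a5, which activates bile acids, read 74.9, 323.8 and 1111 in control and 43.9, 365.1 and 134.8 in mdx muscle at 112 days. Slc10a1 (_g_at), the bile salt carrier of hepatocytes, read 141.8, 815.7 and 800 against 141.2, 137.6 and 89.7, and Slc27a2 read 28, 603.7 and 736.5 against 31.6, 41 and 127.4. Slc25a47, a mitochondrial carrier of liver, read 617, 1140 and 1069 against 662.2, 618.2 and 201.6. These were chosen after their values were seen, and none passed in any genotype comparison. Albumin was over 10000 on control replicates 2 and 3 and on mdx replicate 2 at that age. On that mdx array Slc10a1 read below mdx replicate 1 and Slc27a2 below mdx replicate 3, both of lower albumin, while Slc27a5 read above both. Leaving out the 9 arrays of high albumin left 1 control and 2 mdx arrays at 112 days, so that the spread came from the other groups, which the lone control array is assumed to share. In that fit 0 members rose and 2 fell at 112 days, and Slc39a6 was 0.16 (adjusted p = 0.873), Slc44a1 0.14 (adjusted p = 0.87) and Slc25a11 -0.27 (adjusted p = 0.596).

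**Figure D4:**
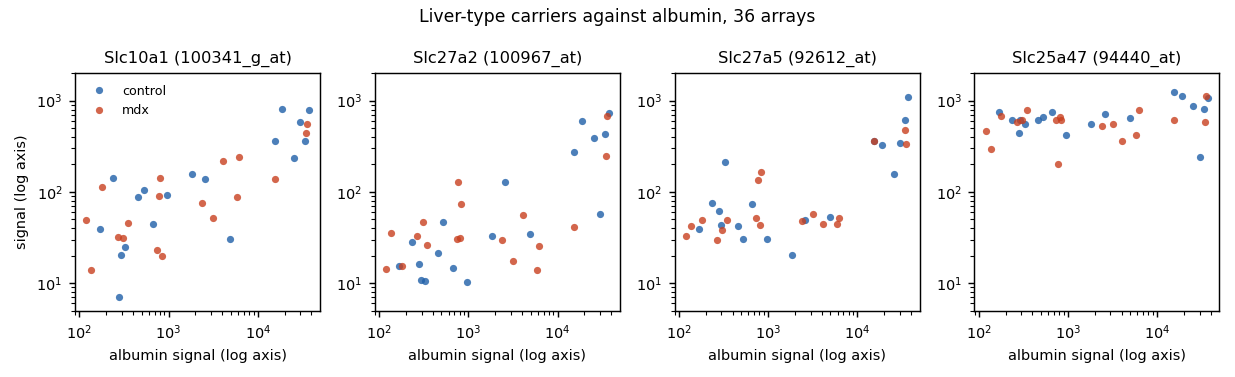
Signal of 4 liver-type carriers against albumin signal, both on log axes, 1 point per array for 36 arrays. The highest points of Slc10a1, Slc27a2 and Slc27a5 are 815.7, 736.5 and 1111, on control arrays of high albumin at 112 days, other arrays of high albumin lie lower, and Slc25a47 lies between 201.6 and 1238 throughout.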

How the data were processed

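Affymetrix 1-colour arrays measured RNA of control and mdx diaphragm at 6 ages, 3 arrays a group. Each deposited value is a probe set's intensity, unlogged. Per the labels, no software is named, and the summary step is therefore not given in the sources here. Their trimmed means were equal between arrays, so they were used as deposited, as log2(intensity + 32).

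Control probe sets were left out, and a probe set was tested where 3 or more arrays exceeded percentile 40 of all values (374.5), which left 9291. One model of 12 group means over all 36 arrays was fitted with limma 3.58.1 in R 4.3.3, with eBayes and a trend, 24 residual degrees of freedom and Benjamini-Hochberg adjustment over all probe sets tested. An F test asked whether the 6 genotype differences were equal. Genes were named through the platform annotation: 10833 probe sets had 1 symbol, 396 several and 1193 none. Members and lists were chosen with earlier results of these data known.

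Named members are those called in the mean of the ages, the largest called differences at each age and over ageing, the lowest F test values, and a set of well known carriers, whatever their values. Slc16a3 and Slc40a1 were in that set and are not analysed here. A probe set ending in _f_at, _g_at, _i_at or _r_at may also bind related transcripts. The Gapdh ratio is the Gapdh control probe set named 3′ over the one named 5′.

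The model was tested on simulated data for the 56-day comparison over 9291 probe sets. It found 8% of 50 changes of 0.5 log2 units, 54% at 1, 82% at 2 and 96% at 3. Of 122 calls, 2 were false (1.64%). Noise was drawn independently for each probe set and array. The false share therefore does not cover differences shared over a whole array, such as those in albumin or the Gapdh ratio. Alternatives were the pseudocount (8 and 128), no filter or percentile 60, quantile normalization, the replicate number as a block, weights for arrays, the Gapdh ratio as a covariate, arrays of low albumin, the arrays of each comparison alone, and leaving out each array. Promoter letters came from RefSeq on GRCm38.p6.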

Additional observations from a re-analysis of the deposited data

Results flagged for a closer look

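Genotype differences that changed with age were found for 8 members by the F test over the 6 ages. Slc4a3, an anion exchanger, had an adjusted p of 0.0112, with 0.54 at 23 days, 0.71 at 56 days and -0.21 at 112 days. Slc25a28, a mitochondrial iron carrier, had 0.017, with 0.49 at 14 days and -0.54 at 28 days. Slc25a39, the glutathione carrier of mitochondria, had 0.0303, with -0.57 at 56 days and 0.13 at 23 days. Slc25a11, the oxoglutarate and malate exchanger, had 0.0306, with -1.08 at 56 days and -0.11 at 23 days. Slc6a4 (_f_at probe set), the serotonin carrier, had 0.0407, with 0.83 at 7 days and -0.74 at 23 days. Slc37a4, the glucose 6-phosphate carrier, had 0.0464, with -0.98 at 112 days and -0.12 at 28 days. Slc7a7, the cationic amino acid exchanger, had 0.0469, with -0.79 at 7 days and 1.64 at 56 days. Slc1a5, the glutamine carrier, had 0.0492, with -0.81 at 7 days and 0.70 at 14 days. Leaving out 1 array in turn, the call was lost in 29 of 36 fits for Slc7a7, 27 for Slc1a5, 22 for Slc37a4 and 18 for Slc6a4. It was lost in 0 for Slc4a3. Without the arrays of high albumin, the calls of Slc4a3, Slc25a28, Slc25a39, Slc25a11 and Slc1a5 were lost.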

How the results depend on the processing

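The 86 calls followed were those of the genotype comparisons, the largest in each ageing comparison, and those of the F test, which have no direction. No followed call with a direction reversed it under any setting. Of the 86, 39 kept their side of the threshold in every fit without 1 array and 27 in every fit run. With the larger pseudocount, 8 members fell at 112 days, as they did in number after quantile normalization, which also gave 1 rise at 23 days and 5 age-dependent members, and moved the median of all probe sets by -0.14 at 56 days. With no filter, 1 member rose at 28 days, 10 rose with mdx ageing and 5 depended on age. With a filter at percentile 60, 1 rose at 28 days. With array weights, 1 rose at 14 days, 10 rose and 10 fell at 23 days, 2 fell at 28 days, 10 rose with mdx ageing and 20 depended on age. With the Gapdh ratio as a covariate, 1 rose and 2 fell at 28 days, 18 rose and 10 fell with control ageing, and 2 depended on age. Of the 18 rises, 15 were calls of the main fit. Without the arrays of albumin above 10000, which left 1 control array at both 14 and 112 days, 1 rose at 14 days, 2 fell at 23 days, 0 rose and 2 fell at 112 days, 3 fell in the mean of the ages, 14 rose and 7 fell with control ageing, and 3 depended on age. With the arrays of each comparison alone, 1 rose and 1 fell at 23 days, and 1 rose and 0 fell at 28 days. In these fits 5 fell at 56 days, and 0 rose and 1 fell at 112 days. They gave 18 rises with control ageing, and 1 rise and 3 falls with mdx ageing. The falls at 23 and 112 days in these fits were not calls of the main fit. Thus 0 of the main calls at 112 days were kept in the arrays of that age alone.

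Leaving out 1 array at a time gave 0 to 1 rises and 0 falls at both 7 and 14 days. It gave 1 to 3 rises with 0 to 2 falls at 23 days, 0 to 2 rises with 0 to 1 falls at 28 days, 6 to 10 rises with 5 to 9 falls at 56 days, and 1 to 5 rises with 3 to 6 falls at 112 days. In the mean of the ages it gave 8 to 11 rises and 4 to 8 falls, with control ageing 19 to 33 and 11 to 14, with mdx ageing 2 to 13 and 5 to 11, and 2 to 13 age-dependent members. The mean-of-ages calls of Slc16a1, Slc30a9 and Slc25a5 (_f_at) were lost in 22, 20 and 21 of the 36 fits without 1 array, with differences of -0.32 to -0.24, -0.29 to -0.21 and 0.18 to 0.25, against -0.28, -0.25 and 0.22.

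Replicate numbers were shared between the genotypes. Deviations of same-numbered arrays from their group means correlated between -0.23 and 0.15, and 1 of 18 pairs was above 0.1, so the numbers did not pair the arrays. With the replicate block, 1 member rose at 28 days and 5 depended on age. The number of arrays limits the precision. The causes of these moves were not tested.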
